A study of Homo sapiens with 8 samples.

Results

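Interferon-stimulated genes are the genes that cells switch on when interferon binds its receptors. The 40 examined here were chosen by symbol: 27 antiviral effectors, 2 RNA sensors, 4 transcription factors, 3 genes of the ISG15 modifier system and 4 genes of antigen presentation. All 40 had a row among the 18133 genes measured, and all 40 passed the filter of a mean of at least 10 normalized counts. They were measured in DND41, a human leukemia cell line of the T lineage (T-cell acute lymphoblastic leukemia, T-ALL). In every group, doxycycline was given for 72 h to switch on a short hairpin RNA (shRNA) in cells grown in RPMI with serum, so the controls carry doxycycline and a hairpin too. The 8 RNA-seq libraries comprised 2 with the control shRNA (control A and C), 3 with the SIRT1 construct sh1 (sh1 A, B and C) and 3 with the SIRT1 construct sh3 (sh3 A, B and C). SIRT1 is a nuclear deacetylase that uses NAD. The labels say that cells were plated in triplicate and do not say whether cultures were otherwise separate, so p-values measure the spread between these libraries, which may be technical. Neither the sequences of the hairpins nor whether the cells were cloned is given in the sources used here.

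Library sh3 C has a title and genotype of the SIRT1 arm and a description of the control arm. Its values are used with sh3, and calls that end without it are given with that p. Normalized counts of SIRT1 were 1745 and 1919.5 in the control libraries, 1259, 1312 and 1328 with sh1, and 1099, 1217 and 1179 with sh3. SIRT1 was lower in every SIRT1 library than in both controls, with a log2 change of -0.49 ± 0.07 (SE, adjusted p = 0.0029) for sh1 and -0.65 ± 0.07 (SE, adjusted p = 0.000144) for sh3, and the sh1 call ended without control C (log2 change -0.42, adjusted p = 0.0506). Per library, the sum of normalized counts ran from 33087820 to 34072666, and the 40 genes together took 0.2206% to 0.2394% of that sum, with none of them at 0 in any library. The T-ALL markers measured (8 of 10 listed, CD3D, CD3E, CD3G, CD7, CD1A, NOTCH1, NOTCH3 and TLX3) were all present, and their summed level was 92078 to 94674 in the controls, 80727 to 83062 with sh1 and 71214 to 72381 with sh3. The members of that list did not all go with the sum: TLX3 stood at 7428 to 7498 in the controls, 7806 to 7970 with sh1 and 12104 to 13195 with sh3, while the other 7 lay below both controls with sh3. Of the markers of other cells, the B cell list (6 of 7 measured) summed to 26299.9 to 27984 in the controls, 19427 to 21220.2 with sh1 and 25646 to 27129.9 with sh3, nearly all of it CD79A and BLK. Its defining marker PAX5 stood at 0 to 5.49. The myeloid list (9 of 9) summed to 289.8 to 399 over the 8 libraries and the plasmacytoid dendritic list (3 of 5) to 1044 to 1582, nearly all of it TCF4, with CLEC4C at 0 to 5.69. The natural killer (NK) and cytotoxic list (4 of 7) summed to 1480 to 1693, mostly NKG7 and PRF1. The erythroid list (4 of 6) summed to 19.9 to 32.7 and the list of adherent cells (8 of 9) to 217 to 327. The part of these shifts in the results below was not tested.

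As background, type I interferon binds the receptor pair IFNAR1 and IFNAR2, and the kinases JAK1 and TYK2 then phosphorylate STAT proteins. STAT2 is one of them, and with IRF9 it is part of the complex ISGF3, which binds the interferon-stimulated response element (ISRE) in the promoters of many of the genes described here. Interferon gamma acts through another element, the gamma-activated site (GAS). Many of these genes are also transcribed at a low level without any interferon, and some respond directly to IRF1, IRF3 or IRF7. Of 21 interferon ligand genes listed, IFNB1 and IFNW1 had a row, with values of 0 to 4.50 and 0 to 3.08 normalized counts, and neither passed the filter. The other 19 were not analysed here.

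The promoters were read from RefSeq windows on GRCh38.p14 that run from 250 bases before to 50 bases after a gene's start. Windows were found for 32 of the 40 genes (DDX58 under the symbol RIGI). No window was matched for IFIT2, IFITM2, MX2, OAS2, OASL, IRF7, USP18 and TRIM22. The core of the ISRE was searched as GAAANNGAAA, with TTTCNNTTTC as the other strand, where N is any base, and matches may overlap each other. It was present in 22 of the 32 genes (68.8%), against 4.38% of all 27305 genes with windows, 3.57% of all 35116 windows and 4.07% of the 10034 genes that were also tested here. The GAS core TTCNNNGAA, which reads the same on both strands, was present in 10 of the 32 (31.2%), against 9.38% of all genes and 8.54% of those tested. A gene with several windows counts once if any window matches, so genes with more windows have more chances to match. A match describes the letters and is no measurement of binding.

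The stretches below hold ISRE matches of genes on which the results turn: IFI6 and BST2, which fell; IFI44L, HERC5 and OAS3, which stood higher with sh3 than with sh1; and ISG15, a classical member that was not called. Capitals mark the bases covered by a match, and the sequences run 5′ to 3′ on the strand of the gene.
IFI6, chr1:27672263-27672362, minus strand: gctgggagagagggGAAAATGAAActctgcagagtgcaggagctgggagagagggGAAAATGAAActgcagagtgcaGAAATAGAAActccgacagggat
BST2, chr19:17405681-17405780, minus strand: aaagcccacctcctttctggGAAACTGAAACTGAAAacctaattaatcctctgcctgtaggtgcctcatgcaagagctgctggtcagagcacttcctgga
IFI44L, chr1:78620268-78620397, plus strand: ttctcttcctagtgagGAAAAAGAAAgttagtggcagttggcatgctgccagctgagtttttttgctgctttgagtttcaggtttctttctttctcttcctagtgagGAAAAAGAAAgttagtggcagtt
HERC5, chr4:88456979-88457068, plus strand: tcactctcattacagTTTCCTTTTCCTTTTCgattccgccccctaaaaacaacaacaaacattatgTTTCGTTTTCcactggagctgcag
OAS3, chr12:112938314-112938351, plus strand: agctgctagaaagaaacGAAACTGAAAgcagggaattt
ISG15, chr1:1013357-1013422, plus strand: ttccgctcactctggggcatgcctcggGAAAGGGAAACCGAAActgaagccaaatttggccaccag
IFI6 held 3 matches in its window, at -156, -115 and -93 bases from the start, and those at -156 and -115 have the same letters. In BST2, 2 matches overlap in 1 run, at -130 and -124 bases from the start, and this stretch also overlaps exon 1 of the long noncoding RNA gene BISPR, which was not analysed here. IFI44L carried the same letters at both of its matches, HERC5 carried 3 matches on the opposite strand, and ISG15 had 2 overlapping matches. OAS3 had a second match nearer its start that is not printed.

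**Figure D1:**
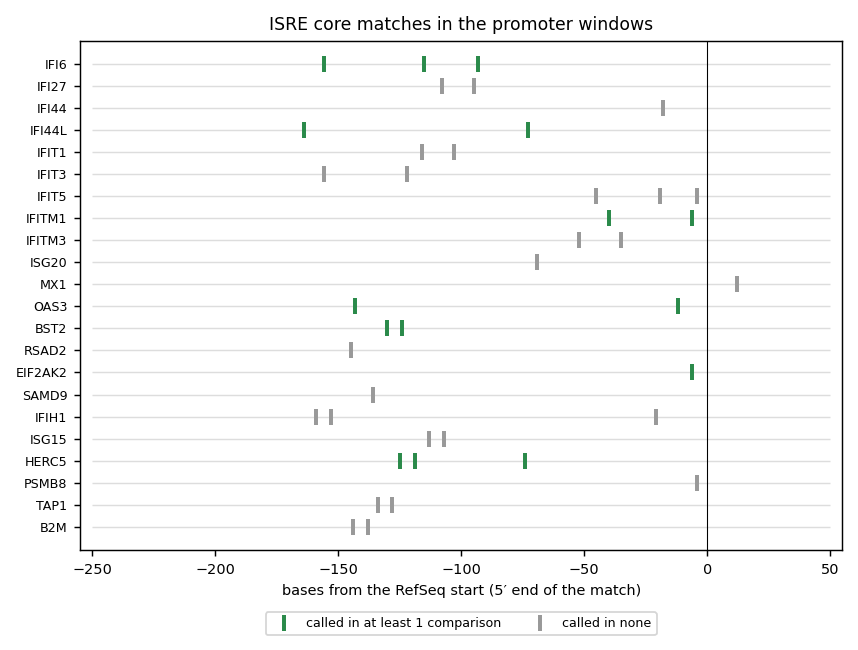
Positions of ISRE core matches in the RefSeq promoter windows of the interferon-stimulated genes that have one (1 row per gene). The x axis is the distance in bases from the gene's start, each tick is the 5′ end of a match in the first window of the gene that has one, and green ticks are genes called in at least 1 comparison. All 22 genes but MX1 have their ticks upstream of the start, as IFI6 does at -156, -115 and -93 bases from it.

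Changes were estimated with limma on log2(normalized counts + 1), a scale that understates the change of low genes, and a gene was called at a Benjamini-Hochberg adjusted p under 0.05 over all 13885 genes tested. Against the control, the mean of the SIRT1 constructs called 7 of the 40 genes (17.5%, against 12.7% of all genes tested). IFIT2, IFITM2, CMPK2 and IRF7 rose, and IFI6, BST2 and SAMD9L fell (6.55% of all genes tested were called higher and 6.19% lower). The construct sh1 alone called 6 of 40 (15.0%, against 6.31% of all genes): EIF2AK2 and IRF7 rose, and IFI6, MX2, XAF1 and SAMD9L fell (2.88% of all genes higher and 3.43% lower). The construct sh3 alone called 10 of 40 (25.0%, against 18.6% of all genes): IFI44L, IFIT2, IFITM1, IFITM2, CMPK2, IRF7 and HERC5 rose, and IFI6, BST2 and SAMD9L fell (9.36% of all genes higher and 9.19% lower). Between the constructs, 9 of 40 differed (22.5%, against 11.4% of all genes). Both constructs are set against the same 2 control libraries, so their lists are not independent.

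Only IRF7 was called higher with both constructs, and only IFI6 and SAMD9L were called lower with both. These make 3 of 40, against 3.86% of all genes called in the same direction with both. In at least 1 of the 4 comparisons 14 of the 40 genes were called (35.0%, against 24.8% of all genes), and 26 were called in none. The median log2 change of the 40 was 0.032 for the mean of the constructs, -0.024 for sh1, 0.074 for sh3 and -0.088 for sh1 minus sh3, and the median of all genes tested lay between -0.002 and 0 in each. Called genes went in both directions in all 4 comparisons. Groups did not overlap for 12 of the 40 in the mean comparison (23.2% of all genes), for 18 with sh1 (38.2%) and for 19 with sh3 (49.8%).

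Each comparison was repeated with 1 library left out at a time and with other settings, named below where they end a call: no trend (a variance prior that does not follow the mean), the 2 groups alone (a fit without the third group), equal totals (columns rescaled) and no filter (rows of low mean kept). The sh1 count of 6 genes became 3 with equal totals and 1 with no trend or with the 2 groups alone. It was 1 without control A or control C, 2 without sh1 B or sh1 C, and 3 without sh3 A or sh3 B. The mean comparison called 4 genes without control A and 3 without control C, and sh3 against control called 6 without either one of them.

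**Figure D2:**
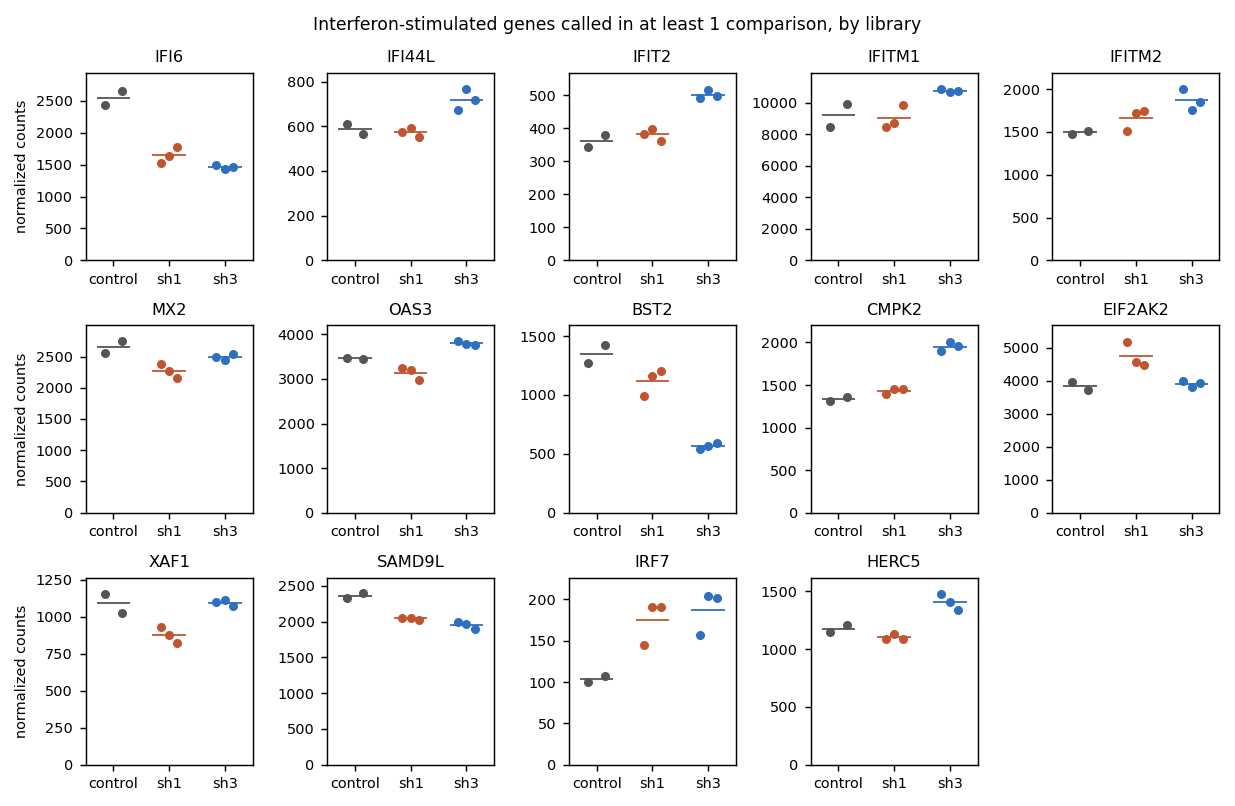
Normalized counts of the 14 called genes in each library (1 panel per gene, linear y axis from 0). Each point is a library, with the control, sh1 and sh3 on the x axis, and the bar is the group mean. BST2 stands at 540.1 to 595 with sh3 and at 988 to 1429 in the other libraries, and IFI6 is lower with both constructs than in both controls.

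Among the antiviral effectors that were called, IFI6 and BST2 showed the largest falls with sh3 and for the mean of the constructs. IFI6 (chromosome 1, 27666061 to 27672218, minus strand, GENCODE 29 on GRCh38) encodes a small protein of mitochondrial and endoplasmic reticulum membranes that restrains cell death and some viruses. Its normalized counts were 2429.6 and 2656 in the control libraries, 1527, 1629 and 1779 with sh1, and 1490.2, 1432 and 1469 with sh3. All 6 SIRT1 libraries lay below both controls. Relative to control, the log2 change was -0.63 ± 0.073 (SE, adjusted p = 0.000769) with sh1, a 1.55-fold lower level, and -0.80 ± 0.073 (SE, adjusted p = 4.83e-05) with sh3, a 1.74-fold lower level. The constructs themselves differed by 0.17 (adjusted p = 0.13) and did not pass the test.

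BST2 (chromosome 19, 17402939 to 17405648, minus strand) encodes tetherin, which holds budding virus particles at the cell surface. Its normalized counts were 1276 and 1429 in the control libraries, 988, 1158 and 1201 with sh1, and 540.1, 566 and 595 with sh3. The sh3 libraries lay far below all others, and the sh1 libraries lay under the controls without overlap. With sh3 the log2 change was -1.25 ± 0.095 (SE, adjusted p = 1.28e-05), a 2.38-fold lower level, and with sh1 it was -0.28 ± 0.095 (SE, adjusted p = 0.11), which did not pass the test. The difference between the constructs was 0.97 ± 0.085 (SE, adjusted p = 3.56e-05). These BST2 and IFI6 calls held in each of the alternatives and with each library left out in turn.

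SAMD9L and SAMD9 lie side by side on chromosome 7 and encode related cytoplasmic proteins that restrict poxviruses and cell growth. SAMD9L counts were 2334 and 2397 in the control libraries, 2058, 2056 and 2029 with sh1, and 2001, 1973 and 1892 with sh3. All SIRT1 libraries were below both controls, with small changes of -0.21 ± 0.054 (SE, adjusted p = 0.0432) for sh1 and -0.27 ± 0.054 (SE, adjusted p = 0.00531) for sh3. The sh3 call ended without control C (log2 change -0.26, adjusted p = 0.0581), and that of the mean of the constructs, -0.24 (adjusted p = 0.00857), ended without control C (log2 change -0.22, adjusted p = 0.111). The sh1 call ended without control A, control C, sh1 A, sh1 B, sh1 C, sh3 A or sh3 B, and also with no filter, equal totals, no trend or the 2 groups alone (log2 change -0.23 to -0.19, adjusted p from 0.0506 to 0.236). SAMD9 counts were 2977 and 3096 in the control libraries, 3366, 3295 and 3108 with sh1, and 3159, 3249 and 3246 with sh3. The SIRT1 libraries of SAMD9 all stood above both controls, with a log2 change of the mean of the constructs of 0.092 (adjusted p = 0.231). The pair share almost no sequence at the level of 31-base words (0.19% of those of SAMD9L occur in any other gene).

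CMPK2 and RSAD2 are divergent neighbours on chromosome 2. CMPK2 (6840570 to 6866635, minus strand) encodes a mitochondrial nucleotide kinase, and RSAD2 encodes viperin, which makes a chain-terminating nucleotide. CMPK2 counts were 1312 and 1357 in the control libraries, 1389.5, 1452 and 1458 with sh1, and 1896, 2003 and 1958 with sh3. The sh3 libraries stood above all others, and the sh1 libraries only just above the controls. In log2 terms the change was 0.55 ± 0.059 (SE, adjusted p = 0.000143) with sh3, a 1.46-fold higher level, and 0.10 ± 0.059 (SE, adjusted p = 0.338) with sh1, and sh1 minus sh3 was -0.45 ± 0.053 (SE, adjusted p = 0.000275). The calls of CMPK2 held with each library left out in turn. RSAD2 counts were 747 and 573 in the control libraries, 565, 670.0 and 546 with sh1, and 722, 759 and 675 with sh3. The control libraries of RSAD2 spanned nearly the whole range of the other 6, and none of its comparisons passed the test, sh1 minus sh3 being -0.28 (adjusted p = 0.132).

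The IFIT genes form a row on chromosome 10 and encode proteins that bind viral RNA ends. IFIT2 counts were 342 and 378 in the control libraries, 384, 397 and 362 with sh1, and 492, 516 and 497 with sh3. Its sh3 libraries were higher than all others, while sh1 overlapped the controls. The log2 change was 0.48 ± 0.093 (SE, adjusted p = 0.00538) with sh3 and 0.081 (adjusted p = 0.663) with sh1, and sh1 minus sh3 was -0.40 ± 0.084 (SE, adjusted p = 0.0107), and both of these calls held with each library left out. The mean of the constructs, 0.28 ± 0.084 (SE, adjusted p = 0.0496), sat at the threshold, and its call ended without control A, control C, sh1 A, sh1 B, sh3 A, sh3 B or sh3 C, and also with a pseudocount of 5 or no filter (log2 change 0.21 to 0.35, adjusted p from 0.0525 to 0.279, and 0.0686 without sh3 C). The other 3 were not called in any comparison: IFIT1 ranged from 198 to 277, IFIT3 from 441 to 551 and IFIT5 from 1352 to 1520.2. IFIT2 exons overlap those of LIPA on the opposite strand by 65 bases and of the noncoding AL353751.1 on the same strand by 356.

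IFI44L and IFI44 are neighbours on chromosome 1 whose products restrain virus replication. IFI44L counts were 609 and 564 in the control libraries, 575, 592 and 553 with sh1, and 673, 765 and 719 with sh3. Every sh3 library stood above all others, and sh1 overlapped the controls. Against control, IFI44L changed by 0.29 ± 0.086 (SE, adjusted p = 0.0365) with sh3 and -0.032 (adjusted p = 0.871) with sh1, and sh1 minus sh3 was -0.32 ± 0.077 (SE, adjusted p = 0.0188). The sh3 call ended without control A, control C, sh1 B, sh3 B or sh3 C, and also with no trend (log2 change 0.24 to 0.35, adjusted p from 0.0504 to 0.235, and 0.072 without sh3 C). The difference between constructs ended without sh1 C, sh3 B or sh3 C (log2 change -0.32 to -0.28, adjusted p from 0.053 to 0.0861, and 0.053 without sh3 C). IFI44 was not called and ranged from 1953 to 2219.6, with a log2 change of -0.12 (adjusted p = 0.149) with sh3.

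The IFITM genes on chromosome 11 encode membrane proteins that block virus entry. IFITM1 was, per kilobase of its longest coding transcript, the second most abundant of the 40 genes, with a mean of 11360.0 normalized counts per kilobase. Its counts were 8488 and 9890.5 in the control libraries, 8486, 8719 and 9856 with sh1, and 10871, 10652 and 10719 with sh3. The sh3 libraries were above all others, and sh1 overlapped the controls. The log2 change was 0.23 ± 0.073 (SE, adjusted p = 0.0487) with sh3, and the call ended without control A, sh1 B, sh3 A, sh3 B or sh3 C, and also with no filter or no trend (log2 change 0.12 to 0.24, adjusted p from 0.056 to 0.354, and 0.0928 without sh3 C). In the comparison of constructs, sh1 minus sh3 was -0.26 ± 0.065 (SE, adjusted p = 0.0265), and that call ended without sh1 A, sh1 B, sh3 A, sh3 B or sh3 C, and also with no trend (log2 change -0.26 to -0.21, adjusted p from 0.0662 to 0.116, and 0.0696 without sh3 C). IFITM2 counts were 1479 and 1509 in the control libraries, 1514, 1724 and 1744 with sh1, and 1997, 1754 and 1849 with sh3. Its SIRT1 libraries all exceeded both controls. The change was 0.32 ± 0.078 (SE, adjusted p = 0.0164) with sh3 and 0.15 (adjusted p = 0.286) with sh1. The sh3 call ended without control A, control C or sh3 A, and also with no trend (log2 change 0.27 to 0.33, adjusted p from 0.0615 to 0.0835), and the call of the mean of the constructs, 0.23 (adjusted p = 0.0483), ended without control A, control C, sh1 B, sh1 C, sh3 A or sh3 C, and also with no filter, TMM scaling or no trend (log2 change 0.21 to 0.25, adjusted p from 0.0505 to 0.206, and 0.0687 without sh3 C). IFITM3 ranged from 61.9 to 93.7 and was not called. These genes are uncertain, because 35.3% (IFITM1), 45.2% (IFITM2) and 56.0% (IFITM3) of their 31-base words occur in another gene, and IFITM1 and IFITM2 share 351 exonic bases of the same strand.

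OAS1, OAS3 and OAS2 stand in a row on chromosome 12 and encode enzymes that make 2′-5′ oligoadenylate, the activator of RNase L. OAS3 counts were 3480.3 and 3446 in the control libraries, 3236, 3200.0 and 2985 with sh1, and 3849, 3789 and 3765 with sh3. The constructs went to opposite sides of the controls: all sh1 libraries were below both and all sh3 libraries above both. Neither passed the test against control, with -0.14 (adjusted p = 0.134) for sh1 and 0.13 (adjusted p = 0.0963) for sh3, while sh1 minus sh3 was -0.28 ± 0.046 (SE, adjusted p = 0.00278), a call that held with each library left out in turn. OAS1 counts were 591 and 713 in the control libraries, 591, 623 and 596 with sh1, and 725, 703 and 699.8 with sh3. Its sh3 libraries were above its sh1 libraries, with the controls overlapping both, and sh1 minus sh3 was -0.23 (adjusted p = 0.09), not past the test. OAS2 ranged from 574 to 792, and OASL, elsewhere on the chromosome, from 22.4 to 33.2, with no call.

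EIF2AK2, which encodes the double-stranded RNA kinase PKR, was the single effector called higher with sh1. Its counts were 3963 and 3712 in the control libraries, 5182, 4563 and 4485 with sh1, and 4001, 3807 and 3929 with sh3. The sh1 libraries stood above all others, and sh3 overlapped the controls. EIF2AK2 changed on the log2 scale by 0.30 ± 0.066 (SE, adjusted p = 0.0226) with sh1 and 0.028 (adjusted p = 0.81) with sh3, and sh1 minus sh3 was 0.28 ± 0.059 (SE, adjusted p = 0.0117). The sh1 call ended without control A or control C, and also with no trend or the 2 groups alone (log2 change 0.26 to 0.35, adjusted p from 0.0576 to 0.183), and the difference between constructs without sh3 B, and also with no trend (log2 change 0.26 to 0.28, adjusted p from 0.0531 to 0.0654).

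XAF1 and MX2 were called lower with sh1. XAF1, whose product binds the apoptosis inhibitor XIAP, had counts of 1154 and 1025 in the control libraries, 928, 875 and 824 with sh1, and 1100.5, 1113 and 1072 with sh3. The sh1 libraries were below all others, and sh3 lay between the controls. The log2 change was -0.31 ± 0.078 (SE, adjusted p = 0.0378) with sh1 and 0.0095 (adjusted p = 0.952) with sh3, and sh1 minus sh3 was -0.32 ± 0.07 (SE, adjusted p = 0.0119), which held with each library left out. The call against control ended without control A, control C, sh1 B, sh1 C, sh3 A, sh3 B or sh3 C, and also with equal totals, no trend or the 2 groups alone (log2 change -0.40 to -0.23, adjusted p from 0.0511 to 0.222, and 0.052 without sh3 C). XAF1 shares 36.6% of its 31-base words with other genes, nearly all with PRAL on the opposite strand. Whether the counting used the strand is not stated in the labels, so its level is uncertain. MX2, a dynamin-like GTPase that acts at nuclear pores, had counts of 2558 and 2747 in the control libraries, 2387, 2264 and 2159 with sh1, and 2494, 2445 and 2539 with sh3. Its sh1 libraries were below all others, and its sh3 libraries also lay below both controls. With sh3 the log2 change was -0.089 (adjusted p = 0.344), and sh1 minus sh3 was -0.14 (adjusted p = 0.134), neither past the test. The change with sh1 was -0.23 ± 0.06 (SE, adjusted p = 0.0495), at the threshold, and this call ended without control A, control C, sh1 B, sh1 C, sh3 A, sh3 B or sh3 C, and also with no filter, equal totals, no trend or the 2 groups alone (log2 change -0.28 to -0.17, adjusted p from 0.0613 to 0.314, and 0.0661 without sh3 C). Its neighbour MX1 ranged from 179 to 289 with -0.29 (adjusted p = 0.282) for sh1.

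The remaining effectors were not called. IFI35 ranged from 579 to 700.3, TRIM22 from 1455 to 1938, ISG20, an exonuclease, from 60.5 to 124, and IFI27 from 1.99 to 23.7. For TRIM22, 17.2% of its 31-base words occur in other genes. Over all 26 genes without a call, the log2 change of the mean of the constructs ran from -0.47 (ISG20) to 0.27 (IFIT1), with adjusted p from 0.111 to 0.991. With sh1 it ran from -0.75 (IFI27) to 0.29 (OASL), and with sh3 from -0.31 (ISG20) to 0.33 (IFIT1).

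**Figure D3:**
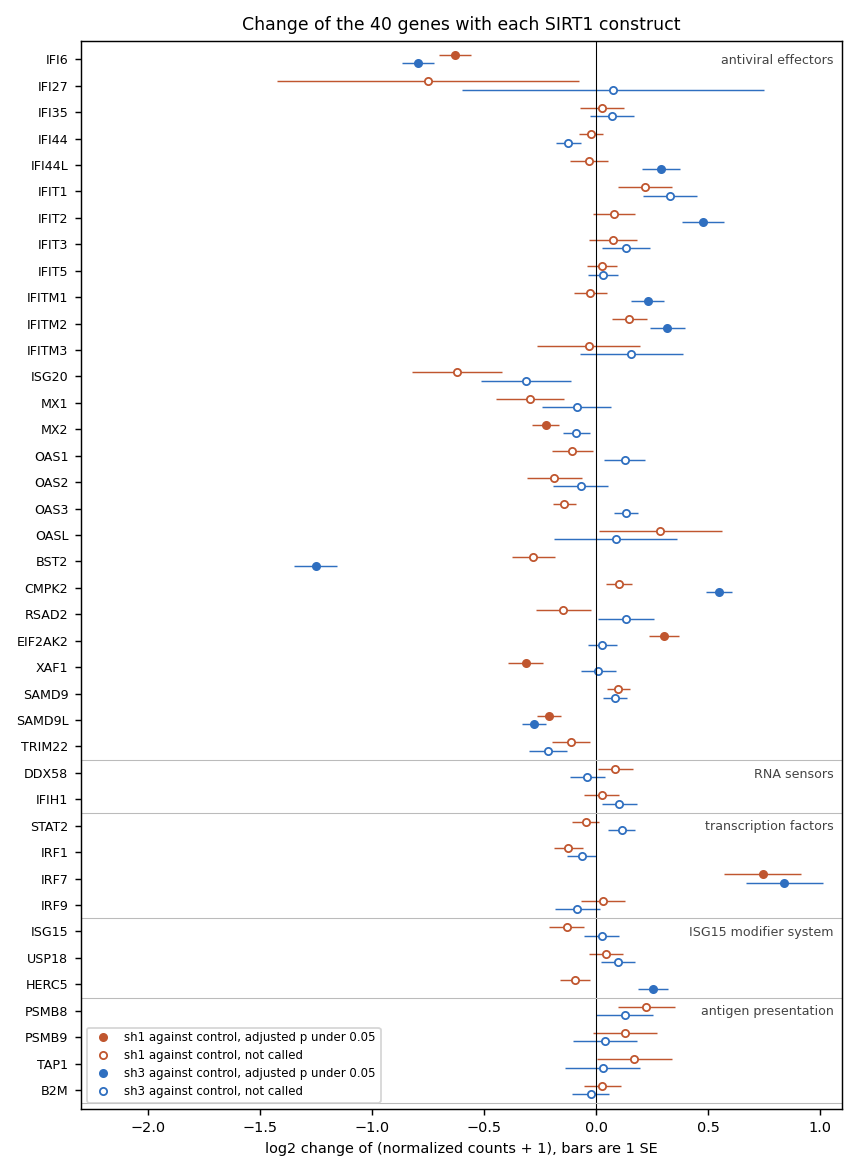
Log2 change against control of each of the 40 genes with sh1 and with sh3 (x axis, log2 scale of normalized counts + 1, bars 1 SE), 1 row per gene. Filled symbols have an adjusted p under 0.05. IFI6 lies left of 0 with both constructs at -0.63 and -0.80, and BST2 lies farthest left with sh3 at -1.25.

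Among the transcription factors, IRF7, the factor that amplifies type I interferon production, rose with both constructs. IRF7 (chromosome 11, 612553 to 615999, minus strand) had counts of 99.4 and 108 in the control libraries, 145, 191 and 190.5 with sh1, and 157, 204 and 201 with sh3. All 6 SIRT1 libraries exceeded both controls, and the constructs overlapped each other. The log2 change was 0.74 ± 0.17 (SE, adjusted p = 0.0294) with sh1 and 0.84 ± 0.17 (SE, adjusted p = 0.00691) with sh3, or 1.79-fold. The sh3 call held with each library left out in turn. That of the mean of the constructs, 0.79 (adjusted p = 0.00798), ended without control A or control C (log2 change 0.73 to 0.85, adjusted p from 0.0635 to 0.0679), and the sh1 call ended without control A, control C, sh1 B or sh1 C, and also with no trend or the 2 groups alone (log2 change 0.68 to 0.80, adjusted p from 0.0535 to 0.135). IRF7 is low, at 79.0 normalized counts per kilobase on average.

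Neither STAT2 nor IRF9, both subunits of ISGF3, was called in any comparison. STAT2 counts were 2173 and 2084 in the control libraries, 2159.8, 1977 and 2053 with sh1, and 2336, 2225 and 2353 with sh3. The sh3 libraries were above all others, and sh1 minus sh3 was -0.16 (adjusted p = 0.0762), not past the test. IRF9 counts were 421 and 368 in the control libraries, 381, 418 and 407 with sh1, and 376, 379 and 358 with sh3. Its sh3 libraries lay below its sh1 libraries and overlapped the range of the controls, and sh1 minus sh3 was 0.11 (adjusted p = 0.469). IRF9 shares 50.3% of its 31-base words, mostly with the readthrough gene AL136295.5, and is uncertain. IRF1 ranged from 2707 to 3299.8 and was not called, and it shares 28.5% of its 31-base words, mostly with C5orf56 on the opposite strand.

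The cytoplasmic RNA sensors were not called. DDX58, which encodes RIG-I, had counts of 715 and 772 in the control libraries, 833, 786 and 750.3 with sh1, and 743, 724 and 703 with sh3. Its sh1 libraries lay above its sh3 libraries, with the controls overlapping both, and sh1 minus sh3 was 0.13 (adjusted p = 0.296). IFIH1, which encodes MDA5, ranged from 874 to 1029.

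In the ISG15 modifier system, ISG15 is the ubiquitin-like modifier, HERC5 its ligase and USP18 its protease. HERC5 counts were 1149.9 and 1206 in the control libraries, 1087, 1133 and 1087 with sh1, and 1479, 1404 and 1338 with sh3. The sh3 libraries stood above all others and the sh1 libraries below both controls. HERC5 changed on the log2 scale by 0.26 ± 0.067 (SE, adjusted p = 0.0229) with sh3 and -0.10 (adjusted p = 0.444) with sh1, and sh1 minus sh3 was -0.35 ± 0.06 (SE, adjusted p = 0.00313). The difference between constructs held with each library left out, and the sh3 call ended without control A, control C, sh3 A or sh3 B (log2 change 0.22 to 0.29, adjusted p from 0.0627 to 0.124). ISG15 counts were 1214 and 1323 in the control libraries, 1085, 1127 and 1265 with sh1, and 1273, 1281 and 1317 with sh3. Its sh3 libraries were above its sh1 libraries and within the range of the controls, and sh1 minus sh3 was -0.16 (adjusted p = 0.175). USP18 ranged from 686 to 774 and was not called, and it shares 30.8% of its 31-base words, mostly with USP41.

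No antigen presentation gene of the 40 was called. B2M, the invariant chain of class I molecules and the most abundant of the 40 per kilobase (13590.0), had counts of 22120.0 and 24119 in the control libraries, 20936, 23548 and 26461 with sh1, and 23853, 22568 and 21798 with sh3. The groups overlapped, and the log2 change of the mean of the constructs was 0.0019 (adjusted p = 0.991). The immunoproteasome subunits PSMB8 and PSMB9 ranged from 478 to 675 and from 187 to 250.2, and the peptide transporter TAP1 from 409 to 640.4. Their changes for the mean of the constructs were 0.18 (adjusted p = 0.342), 0.085 (adjusted p = 0.717) and 0.10 (adjusted p = 0.712).

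The difference between the constructs was tested directly for each gene. BST2 and EIF2AK2 were higher with sh1, and IFI44L, IFIT2, IFITM1, OAS3, CMPK2, XAF1 and HERC5 were lower with sh1 than with sh3 (5.61% of all genes were called higher with sh1 and 5.83% lower). Without regard to the test, 26 of the 40 genes had a higher fitted value with sh3 and 14 with sh1, and 50.4% of all genes were higher with sh3. Groups sh1 and sh3 did not overlap for 21 of the 40, against 30.5% of all genes tested. SIRT1 itself differed between the constructs by 0.16 (adjusted p = 0.135).

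The 40 genes include 21 that lie within 200 kb of another of them, in 8 neighbourhoods. In the OAS row OAS3 was called between constructs, and OAS1 and OAS2 were not. In the IFIT row IFIT2 was called and the other 3 were not. For the mean of the constructs, however, IFIT1 was at 0.27 (adjusted p = 0.117), near the 0.28 of IFIT2. Every SIRT1 library of IFIT1 exceeded both controls. IFIT3 was at 0.10 and IFIT5 at 0.029. SAMD9L fell while its neighbour SAMD9 was at 0.092 (adjusted p = 0.231). No gene of the neighbourhood of PSMB8, PSMB9 and TAP1 was called. Among the genes with a promoter window, the ISRE core was present in 7 of 10 that were called in any comparison and in 15 of 22 that were not. The GAS core was in 2 of 10 and 8 of 22. The called genes CMPK2, XAF1 and SAMD9L had no ISRE match in their windows.

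**Figure D4:**
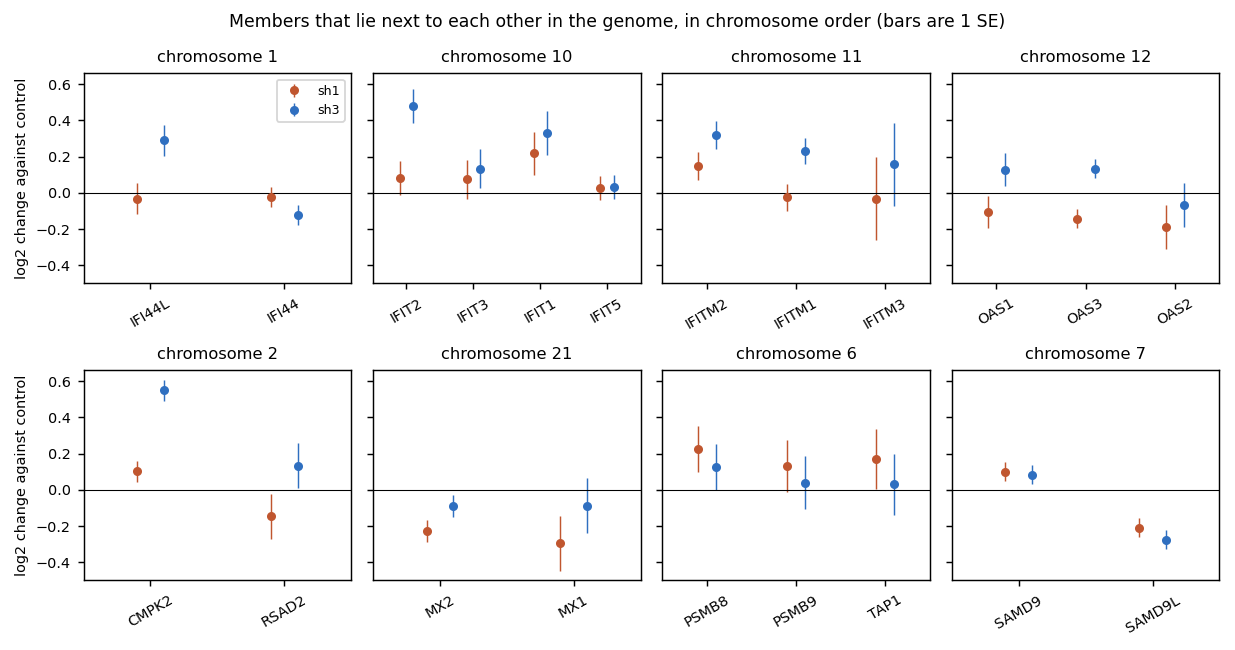
Log2 change against control (y axis, bars 1 SE) of members that lie within 200 kb of each other, in chromosome order, 1 panel per neighbourhood, for sh1 and sh3. In the SAMD9 and SAMD9L panel both constructs lie above 0 for SAMD9 and below 0 for SAMD9L, and in the CMPK2 and RSAD2 panel CMPK2 stands at 0.55 with sh3.

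The wider interferon pathway was read from lists of 147 other genes, of which 113 were tested. The mean of the constructs called 14 of them (12.4%, against 12.7% of all genes): 10 rose and 4 fell. With sh1, 2 of 113 were called (1.77%, against 6.31% of all genes), both lower. With sh3, 25 were called (22.1%, against 18.6% of all genes), of which 20 rose and 5 fell (9.36% of all genes higher and 9.19% lower). Between constructs 22 were called (19.5%, against 11.4% of all genes), 4 higher and 18 lower with sh1 than with sh3 (5.61% of all genes higher and 5.83% lower). Among the receptors and their kinases, none of 8 passed the mean comparison. IFNGR1, a chain of the interferon gamma receptor that was chosen after its values were seen, had counts of 1888 and 1901 in the control libraries, 2032, 2152 and 2333 with sh1, and 1460.0, 1434 and 1394 with sh3. Its sh1 libraries stood above both controls and its sh3 libraries below both. The log2 change was -0.41 ± 0.066 (SE, adjusted p = 0.00196) with sh3 and 0.19 (adjusted p = 0.11) with sh1, and sh1 minus sh3 was 0.60 ± 0.059 (SE, adjusted p = 9.03e-05). IFNAR1 differed between the constructs by -0.18 ± 0.05 (SE, adjusted p = 0.0389), a call that ended without sh1 B, sh1 C, sh3 A or sh3 B, and also with no trend (log2 change -0.18 to -0.15, adjusted p from 0.0904 to 0.148). In the mean comparison IFNAR2 was at -0.059 (adjusted p = 0.502) and TYK2 at 0.0062 (adjusted p = 0.948). JAK1 was at 0.22 (adjusted p = 0.0561) for the mean and 0.26 ± 0.077 (SE, adjusted p = 0.039) for sh3, a call that ended without control A, control C, sh3 A or sh3 B, and also with no trend (log2 change 0.18 to 0.30, adjusted p from 0.0542 to 0.231).

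For the mean of the constructs, 2 of the 10 other STAT and IRF genes tested rose and none fell (20.0% called, against 12.7% of all genes). IRF2, which binds the same element as IRF1, had counts of 1527 and 1615 in the control libraries, 1749, 1792 and 1882 with sh1, and 2023, 1988 and 1916 with sh3. All 6 SIRT1 libraries exceeded both controls. The mean of the constructs gave 0.27 ± 0.054 (SE, adjusted p = 0.00931), which ended without control A or control C (log2 change 0.23 to 0.31, adjusted p from 0.0553 to 0.0862). STAT5A, a mediator of cytokine signals, rose by 0.68 ± 0.11 (SE, adjusted p = 0.00224) with sh3, against 0.10 (adjusted p = 0.652) with sh1. Its mean call, 0.39 (adjusted p = 0.0283), ended without control A, control C, sh3 B or sh3 C, and also with no trend (log2 change 0.32 to 0.46, adjusted p from 0.0504 to 0.245, and 0.0504 without sh3 C).

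Of 18 genes of nucleic acid sensing and interferon induction, 2 rose and 1 fell in the mean comparison (16.7%, against 12.7% of all genes). TLR7, an endosomal RNA receptor, had counts of 62.7 and 112 in the control libraries, 53.0, 51.7 and 48.5 with sh1, and 14.4, 13.0 and 24.0 with sh3. Its sh3 libraries lay below all others and its 2 controls differed widely. The change with sh3 was -2.28 ± 0.32 (SE, adjusted p = 0.000857), and that of the mean of the constructs, -1.49 ± 0.29 (SE, adjusted p = 0.00785), ended without control C (log2 change -1.08, adjusted p = 0.156). DHX58, the relative of RIG-I called LGP2, had counts of 758 and 699 in the control libraries, 741, 701 and 711 with sh1, and 1066, 1032 and 983 with sh3. Its sh3 libraries stood above all others. DHX58 rose by 0.50 ± 0.075 (SE, adjusted p = 0.00126) with sh3, against -0.021 (adjusted p = 0.91) with sh1. Its mean of 0.24 (adjusted p = 0.0403) ended without control A, control C, sh1 A, sh1 B, sh3 A or sh3 B, and also with no filter or no trend (log2 change 0.18 to 0.30, adjusted p from 0.0502 to 0.322). TBK1, the kinase that activates IRF3, rose by 0.28 ± 0.056 (SE, adjusted p = 0.00621) with sh3, which ended without control C (log2 change 0.27, adjusted p = 0.0557), and its mean of 0.18 (adjusted p = 0.0373) ended without control A, control C, sh1 B, sh3 A or sh3 B, and also with no trend (log2 change 0.17 to 0.19, adjusted p from 0.0593 to 0.218).

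Of 14 negative regulators and nucleic acid clearance genes, 2 rose and 1 fell in the mean comparison (21.4%, against 12.7% of all genes). SOCS1, an inhibitor of JAK kinases, had counts of 1663 and 2213 in the control libraries, 1646, 1611 and 1741 with sh1, and 748, 1016 and 996 with sh3. Its sh3 libraries were below all others, with -1.07 ± 0.14 (SE, adjusted p = 0.000439) for sh3, -0.20 (adjusted p = 0.422) for sh1 and sh1 minus sh3 of 0.87 ± 0.12 (SE, adjusted p = 0.000896). The SOCS1 mean of -0.64 (adjusted p = 0.00751) ended without control C, and also with no trend (log2 change -0.64 to -0.43, adjusted p from 0.0623 to 0.144). PIAS1, an inhibitor of STAT signalling, was at 0.29 ± 0.056 (SE, adjusted p = 0.00473) with sh3, and its mean of 0.22 (adjusted p = 0.0164) ended without control A or control C, and also with no trend (log2 change 0.21 to 0.23, adjusted p from 0.0556 to 0.113). RNASEH2A, a subunit of the enzyme that removes RNA from hybrids, had a mean of 0.20 (adjusted p = 0.0483) that ended without control A, control C, sh1 A, sh1 B, sh3 A, sh3 B or sh3 C, and also with no filter or no trend (log2 change 0.14 to 0.27, adjusted p from 0.058 to 0.387, and 0.0705 without sh3 C), and its sh3 value of 0.25 (adjusted p = 0.0286) ended without control C, sh3 A, sh3 B or sh3 C, and also with no trend (log2 change 0.18 to 0.25, adjusted p from 0.0575 to 0.237, and 0.0575 without sh3 C).

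Of 46 other interferon-stimulated effectors, 3 rose and 1 fell for the mean of the constructs (8.70%, against 12.7% of all genes). LGALS3BP, a secreted galectin-binding glycoprotein, had counts of 5891 and 6473 in the control libraries, 4742, 4831 and 4744 with sh1, and 4619.8, 4738 and 4684 with sh3. All 6 SIRT1 libraries lay below both controls, with -0.37 ± 0.051 (SE, adjusted p = 0.00219) for sh1 and -0.40 ± 0.051 (SE, adjusted p = 0.00042) for sh3, calls that held with each library left out in turn. The guanylate-binding GTPase GBP5 had counts of 4338 and 4442 in the control libraries, 4385, 4266 and 4230.2 with sh1, and 6511, 6269.7 and 5675 with sh3. Its sh3 libraries were above all others, with 0.48 ± 0.059 (SE, adjusted p = 0.000334) for sh3, -0.032 (adjusted p = 0.8) for sh1 and sh1 minus sh3 of -0.52 ± 0.053 (SE, adjusted p = 0.00011). The mean of GBP5, 0.23 (adjusted p = 0.0181), ended without control A or control C, and also with no trend (log2 change 0.21 to 0.24, adjusted p from 0.0799 to 0.116). GBP1 was at 0.35 ± 0.069 (SE, adjusted p = 0.00617) with sh3, which ended without control A (log2 change 0.28, adjusted p = 0.0573), and its mean of 0.27 (adjusted p = 0.0164) ended without control A or control C, and also with no trend (log2 change 0.20 to 0.34, adjusted p from 0.0533 to 0.151). Of 17 other antigen presentation genes, 1 rose and 1 fell in the mean comparison (11.8%, against 12.7% of all genes). HLA-E, a class I molecule read by NK cell receptors, had counts of 5259.5 and 5254 in the control libraries, 5319.7, 5701 and 5649 with sh1, and 8044, 7860.0 and 7121 with sh3. Its sh3 libraries stood above all others, with 0.54 ± 0.059 (SE, adjusted p = 0.000144) for sh3, 0.079 (adjusted p = 0.468) for sh1 and sh1 minus sh3 of -0.46 ± 0.052 (SE, adjusted p = 0.000196). The HLA-E mean of 0.31 (adjusted p = 0.00391) ended without control C (log2 change 0.31, adjusted p = 0.0544). PDIA3, a chaperone of class I loading, was at -0.18 (adjusted p = 0.0306) for the mean and -0.20 (adjusted p = 0.0495) for sh1. The mean call ended without control C, sh1 B, sh3 A or sh3 B, and also with no trend (log2 change -0.18 to -0.10, adjusted p from 0.0599 to 0.375), and the sh1 call ended without control C, sh1 A, sh1 B, sh1 C, sh3 A, sh3 B or sh3 C, and also with no filter, equal totals, no trend or the 2 groups alone (log2 change -0.21 to -0.12, adjusted p from 0.0575 to 0.364, and 0.0687 without sh3 C).

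**Figure D5:**
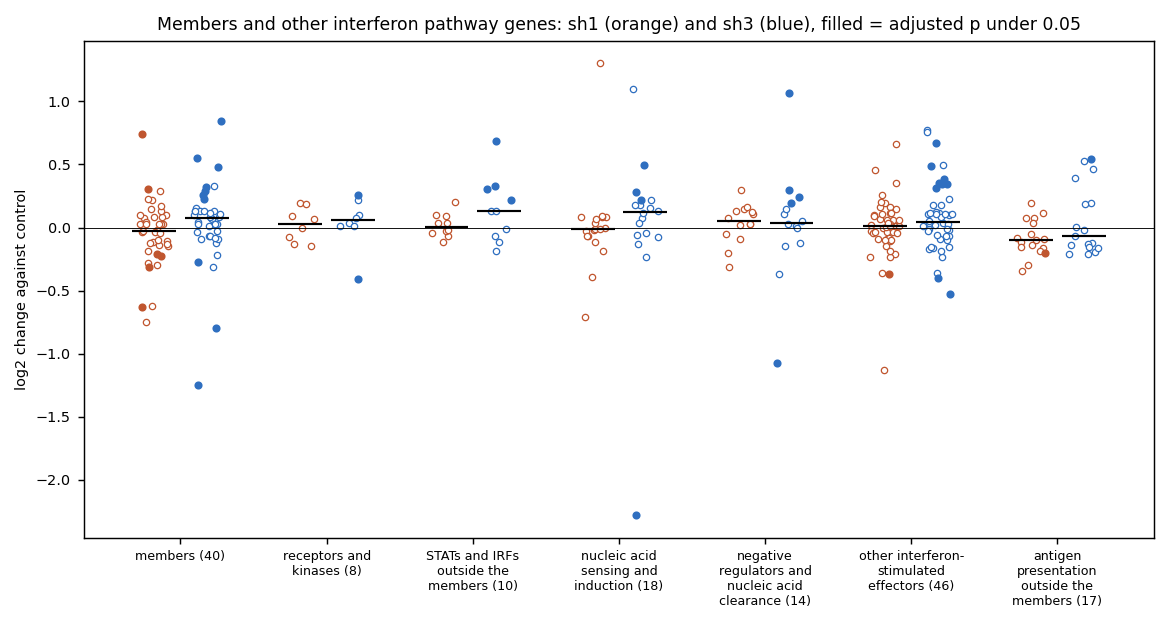
Log2 change against control (y axis) of the 40 interferon-stimulated genes (members) and of the other interferon pathway genes by list (x axis, number of genes tested in brackets), for sh1 and sh3. Each point is a gene, bars are medians, and filled points have an adjusted p under 0.05. SOCS1 lies at -1.07 and TLR7 at -2.28 with sh3.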

How the data were processed

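Strand-specific RNA-seq libraries were made from DND41 cells, per the labels' protocols. The deposited values are a signal, normalized counts per gene symbol. The tools kallisto 0.44.0 and DESeq, and hg38, are named in the submitters' processing notes. No annotation or filter is given in the sources used here. Since the values are not whole numbers, no count test was run. One limma 3.58.1 model in R 4.3.3 was fitted to log2(value + 1) of the 13885 rows with a mean of at least 10 (4248 removed), with 3 group means, 5 residual degrees of freedom, an empirical Bayes prior with a trend, two-sided tests and Benjamini-Hochberg adjustment over all rows, and was tested on simulated data. The members and lists were chosen with earlier results of these data known. Values in every library are given for members called in any comparison, among the 5 highest means, or with opposite signs and no overlap between constructs. Pathway lists give the 3 smallest p called in the mean comparison, plus IFNAR1, IFNAR2, JAK1 and TYK2. A few listed genes are counted but not reported here by name. Positions and 31-base words are from GENCODE 29 on GRCh38. Alternatives were pseudocounts of 0.5 and 5, no filter or a mean of at least 50, equal totals, TMM factors, no trend, the compared groups alone, a replicate block and each library left out.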

Additional observations from a re-analysis of the deposited data

Results flagged for a closer look

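The direct test of sh1 against sh3 passed for 9 of the 40 interferon-stimulated genes in the main fit. The values are log2 differences of sh1 minus sh3. The antiviral tetherin gene BST2 differed most, at 0.97, since it was lower with sh3. The RNA-activated kinase gene EIF2AK2 differed by 0.28, since it was higher with sh1. Genes lower with sh1 than with sh3 were the nucleotide kinase gene CMPK2 at -0.45, the RNA-binding IFIT2 at -0.40, the ISG15 ligase gene HERC5 at -0.35, IFI44L at -0.32, XAF1 at -0.32, the oligoadenylate synthetase gene OAS3 at -0.28 and IFITM1 at -0.26. Of all genes tested, 11.4% were called in this comparison. The calls of EIF2AK2, IFI44L and IFITM1 ended under some alternatives, with adjusted p up to 0.0654, 0.0861 and 0.116. The levels of IFITM1 and XAF1 are uncertain, because 35.3% and 36.6% of their 31-base words occur in other genes.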

How the results depend on the processing

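Calls of the 40 genes were recomputed under each alternative, and no named change that was called there or in the main fit reversed its sign. Of 32 member calls in the 4 comparisons, 15 held throughout and 17 ended under at least 1 alternative, beside the replicate block. For sh1 against control, 6 genes were called (2 higher and 4 lower), 3 with equal totals (2 higher and 1 lower), 1 with no trend, 1 with the 2 groups alone, and 1 to 5 with 1 library left out. For the mean of the constructs 7 were called and 3 to 7 with 1 library left out, for sh3 10 and 6 to 10, and for sh1 against sh3 9 and 6 to 10. Over all genes the mean comparison called 1768, with 337 higher and 407 lower without a trend, and 144 higher and 195 lower without control C. The cause was not tested, other than that leaving out a control leaves 1 library in that arm, assumed to vary like the other groups. Letters shared across groups did not pair the libraries: deviations of same-letter libraries correlated at -0.062 to 0.058. With the letter as a replicate block, 5 genes were called for the mean, 4 for sh1, 8 for sh3 and 9 for sh1 against sh3, and 6 of the 32 calls were not made: HERC5 (adjusted p = 0.0582) and IFI44L (0.0896) for sh3, IFIT2 (0.123) and IFITM2 (0.0892) for the mean, and MX2 (0.115) and SAMD9L (0.0859) for sh1. Over all genes, the block called 623 higher and 669 lower for the mean, and 227 and 322 for sh1. For sh3 it called 1014 and 1057, and for sh1 against sh3 724 and 771. Of the pathway genes named, the block ended the mean calls of DHX58, PDIA3, RNASEH2A, STAT5A and TBK1, the sh1 call of PDIA3 and the IFNAR1 difference between constructs. With 2 controls and normalized values whose depth is unknown, small changes of low genes such as OASL and IFI27 could not be resolved.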
